A study of Saccharomyces cerevisiae with 4 samples.

Results

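The subtelomeric genes of budding yeast (Saccharomyces cerevisiae) were examined at all 32 chromosome ends in cells lacking LOC1 and in wild-type cells. A systematic gene name holds the chromosome, the arm and a number that counts outward from the centromere, so the 10 highest numbers on an arm are its outermost named genes. Of the 320 rows chosen in this way, 14 were left out by name, among them acid phosphatase, aryl-alcohol dehydrogenase and thiamine or vitamin B6 genes, which left 306 of the 6207 gene rows of the arrays. The rule uses the position in the name and a list of names left out, and no measured value enters it, though it was written with earlier results of these data known. A RefSeq gene table held 260 of them, and these had a median of 4 annotated genes farther out on their arm and at most 14. The other 46 are open reading frame names without an entry there, and for those the label of subtelomeric gene rests on the name alone.

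Messenger RNA was compared on 4 microarrays of 2 colours, each with RNA of 1 culture of the Loc1 knockout strain PSY3262 and 1 culture of the wild-type strain PSY3259 in rich medium (YPD) at 30 °C, taken in early log phase. The labels call the 4 arrays biological replicates, with the knockout in Cy5 on arrays 1 and 4 and in Cy3 on arrays 2 and 3. On array 4 the strain tag of both channels names PSY3262, while the source descriptions name knockout and wild type. How LOC1 was removed, the mating type, the marker genotype and whether the knockout is 1 clone are not stated by the labels.

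Subtelomeres lie between the telomere repeats and the first unique genes. In yeast they carry repeated X and Y' elements and gene families spread over many ends, such as the PAU, COS, flocculin, maltose and hexose transporter genes. Many of these genes are repressed in rich medium, some through silencing by the Sir proteins that Rap1 recruits to telomeres and others through histone deacetylases and the Tup1-Cyc8 co-repressor. Loc1 itself is a nuclear RNA-binding protein of large ribosomal subunit assembly and of ASH1 mRNA localization.

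Values are the deposited log ratios, given as knockout over wild type. Neither labels nor files name the base of the logarithm. It was taken as 10 because the values end exactly at a size of 2, and folds are given only if base 10. LOC1 had turned values of -1.20, -0.972, -1.07 and -1.31 on arrays 1 to 4, a mean of -1.14 ± 0.146 (SD, n = 4) or 13.7-fold lower if base 10. These signs were set by the alignment, because the columns of arrays 2 and 4 had their sign changed to bring LOC1 under 0, and the size alone is a measurement. The dye labels do not settle the direction. As deposited, arrays 1 and 4, labelled in one orientation, correlated at r = -0.723 across 6200 rows, and arrays 2 and 3 at r = -0.433 across 6197 rows, a description across genes that are not independent. The direction used is therefore called likely. With the sign turned, every rise below becomes a fall and every fall a rise, so that 42 members would be higher and 117 lower.

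Subtelomeric genes were higher in the knockout more often than they were lower. Of the 306 members, 117 rose and 42 fell at an adjusted p under 0.05 by limma, adjusted over all 6205 rows tested. In all rows tested 22.5% were called higher and 21.7% lower, 44.2% in either direction. The members' shares were 38.2% higher and 13.7% lower, against 21.7% and 22.1% in the 5899 other rows, and in either direction 52% of the members and 43.8% of the other rows passed. The median of the members was 0.0563 log units, and the median of the other rows was -0.0001. All 4 arrays were above 0 in 125 members (40.8%), against 27.9% of other rows and 28.5% of all rows, and below 0 in 49 members (16%), against 28.7% of other rows and 28% of all rows. The members also varied more between arrays, with a median SD of 0.0752, against 0.0499 in other rows. The cultures were measured in bulk, so a change in the number of cells that express a gene and a change in mRNA per cell cannot be told apart.

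The excess of rises lay on arrays 1 and 4. The members' median was 0.0871, 0.0182, 0.0209 and 0.0856 on arrays 1 to 4, against 0.0034, 0.0103, 0 and -0.0153 in the other rows. With arrays 1 and 4 alone 127 members were called higher (41.5%), against 13.1% of other rows and 14.5% of all rows. With arrays 2 and 3 alone 24 were (7.84%), against 11.1% of other rows and 10.9% of all rows. Without array 1 the members higher numbered 57, or 18.6% against 16.5% of other rows, and without array 4 they numbered 66, or 21.6% against 17.4%.

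The difference between these pairs of arrays was also tested row by row. In limma 0 of 6192 rows passed an adjusted p under 0.05 for arrays 1 and 4 minus arrays 2 and 3. The smallest adjusted p was 0.0877, shared by 6 rows, 5 of them members. These 5 are among 7 outer rows of like values, described below, that cannot be counted as separate observations. At an unadjusted p under 0.05, 87 members were higher on arrays 1 and 4 and 3 were lower, or 29.4% of the members against 3.55% of all rows and 2.21% of other rows. The higher ones were 28.4% and the lower ones 0.98% of the members, against 2.58% and 0.969% of all rows, and 1.24% and 0.968% of other rows. The members' median difference was 0.0687 log units, against -0.0106 in other rows. Arrays 1 and 4 share the labelled dye orientation, and with 2 arrays each the dye and the cultures on them cannot be told apart. The LOC1 values do not settle which arrays truly shared a dye orientation.

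**Figure D1:**
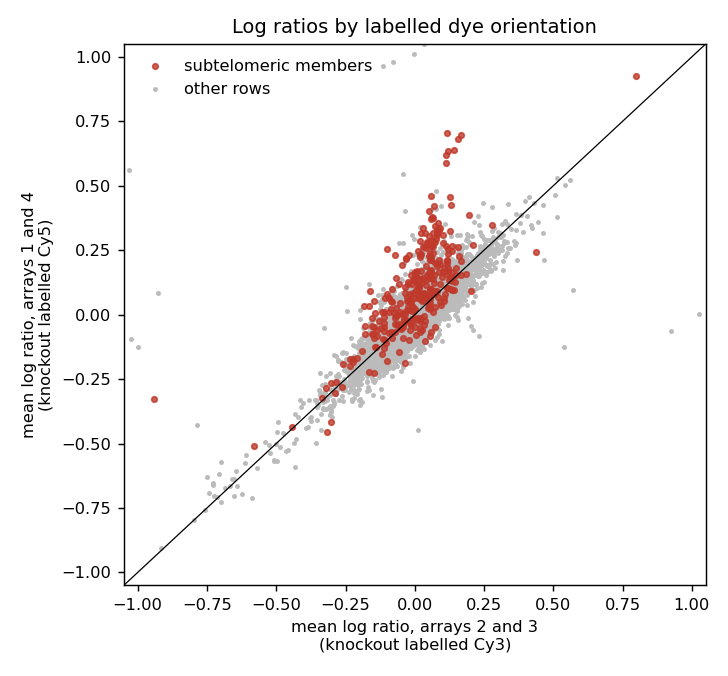
Mean log ratio of each row on arrays 1 and 4 (vertical) against arrays 2 and 3 (horizontal), knockout over wild type in deposited log units, with the 306 subtelomeric members in red, the other rows in grey and the line of equal values. Many members with small values on arrays 2 and 3 lie above the line, while CHA1 at the upper right and the deepest called falls lie near it. YLL066C, which did not pass, lies far above the line, at -0.940 on arrays 2 and 3 and -0.327 on arrays 1 and 4. Beyond the drawn range lie 5 other rows.

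The log ratios on arrays 1 and 4 were highest in the second to sixth rows from the end. At row 2 the median over the 32 arms was 0.131, 0.0171, 0.0490 and 0.170 on arrays 1 to 4, and 16 of 32 rows rose and 6 fell. At row 1, the outermost, it was 0.0452, 0.0155, -0.00015 and 0.0400, with 10 rises and 6 falls. At row 9 it was 0.0078, -0.0324, -0.0122 and 0.0355, with 9 rises and 9 falls. Of the members in rows 1 to 5, 67 of 155 rose and 20 fell, with a median of 0.0777, and in rows 6 to 10, 50 of 151 rose and 22 fell, with a median of 0.0402. Just inside the limit, the 31 members at row 10 had a median of 0.0610, and just outside it, the 32 rows at row 11 had 0.0051. Medians of single rows were uneven on both sides of the limit, with 0.0038 at row 1, 0.0092 at row 9 and 0.0502 at row 16. Rows 11 to 20 held 82 rises and 59 falls among 320 (25.6% and 18.4%), and rows 21 to 30 held 65 and 67 (20.3% and 20.9%), close to the shares of all rows.

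**Figure D2:**
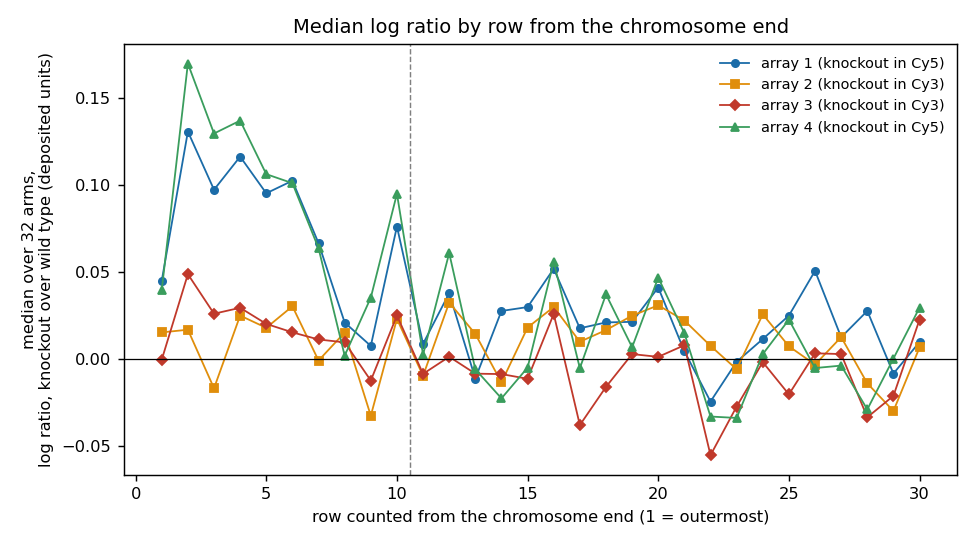
Median log ratio over the 32 arms (vertical, knockout over wild type in deposited log units) by row counted from the chromosome end (horizontal), 1 line per array, rows left out by name included. Arrays 1 and 4 lie near or above 0.1 at rows 2 to 6, arrays 2 and 3 stay below 0.05 there, and the dashed line marks the limit of 10 rows.

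The chromosome arms did not behave alike. The median of the members was above 0 on 26 of 32 arms and below 0 on 6, and 30 arms held at least 1 rise. The counts on single arms stand beside 22.5% called higher and 21.7% lower in all rows. The left arm of chromosome 3 had the highest median, at 0.158, with 7 of 10 rows risen and 0 fallen. It ends in a run of rises around the silent mating-type cassette and CHA1. The left arm of chromosome 11 had 8 of 10 rows risen and 0 fallen, with a median of 0.134. The lowest medians were those of the right arms of chromosome 1, at -0.135 with 0 of 9 risen and 6 fallen, and of chromosome 8, at -0.106 with 0 of 9 risen and 5 fallen. Without these 2 arms 117 of 288 members rose (40.6%) and 31 fell (10.8%). As the arms left out hold no rise, the larger share of rises without them was set by that choice.

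**Figure D3:**
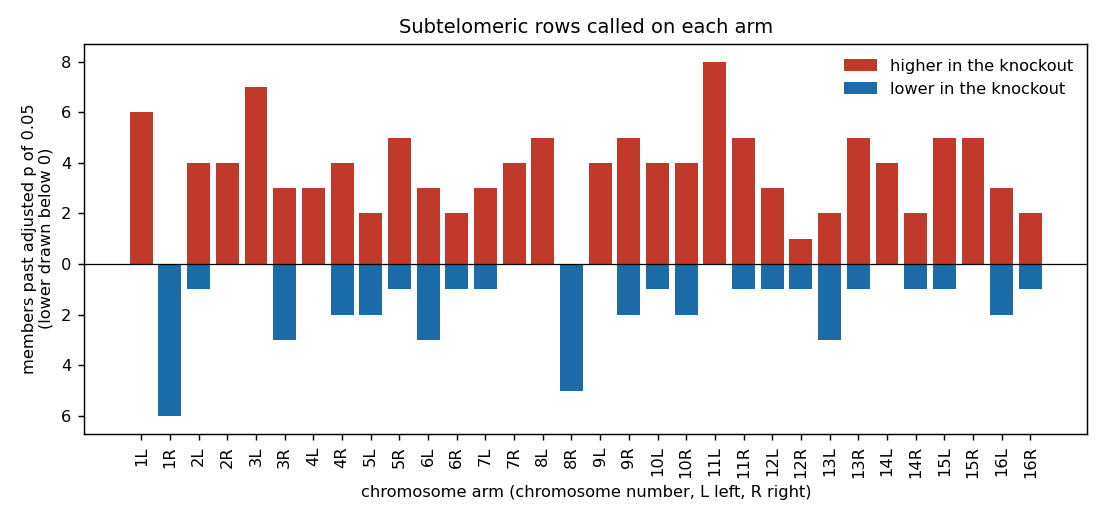
Number of members called higher (red, upward) and lower (blue, downward) in the knockout at an adjusted p under 0.05 by limma on each chromosome arm. The right arms of chromosomes 1 and 8 carry falls and no rises, with 6 and 5 falls, and the left arms of chromosomes 11 and 3 carry the most rises, with 8 and 7. Of all rows tested, 22.5% were called higher and 21.7% lower.

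The largest rise was that of CHA1, a deaminase that lets cells use serine and threonine as nitrogen source, at the tenth row of the left arm of chromosome 3. CHA1 had 0.916, 0.892, 0.708 and 0.937 on arrays 1 to 4, a mean of 0.863 ± 0.105 (SD, n = 4) or 7.30-fold if base 10, with adjusted p = 1.4e-05 by limma. All 4 arrays placed it far above 0, and arrays 1 and 4 did not stand apart from array 2.

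The next 7 rises were rows within the 6 outermost of their arms, with much the same 4 values. They are YNL337W, YMR326C, YJR162C, YNR077C, YFL063W, YAL069W and YLL065W, on 6 chromosomes, and 6 of the 7 have no entry in the RefSeq table. Their values lay between 0.563 and 0.740 on array 1, between 0.0073 and 0.0820 on array 2, between 0.178 and 0.257 on array 3 and between 0.545 and 0.679 on array 4. Arrays 1 and 4 were high, array 3 was lower and array 2 was near 0 in each row, so the means rest on arrays 1 and 4. Without array 1, 2 of the 7 were called, without array 4, 5 were, and with robust and trended variance 1 was. YNL337W had the highest mean, 0.432 ± 0.316 (SD, n = 4) with adjusted p = 0.0095 by limma, and YLL065W the lowest, 0.351 ± 0.284 (SD, n = 4) with adjusted p = 0.015. Probe sequences were not used here, and rows of one repeated sequence can share signal, so these 7 rows cannot be counted as 7 separate observations.

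**Figure D4:**
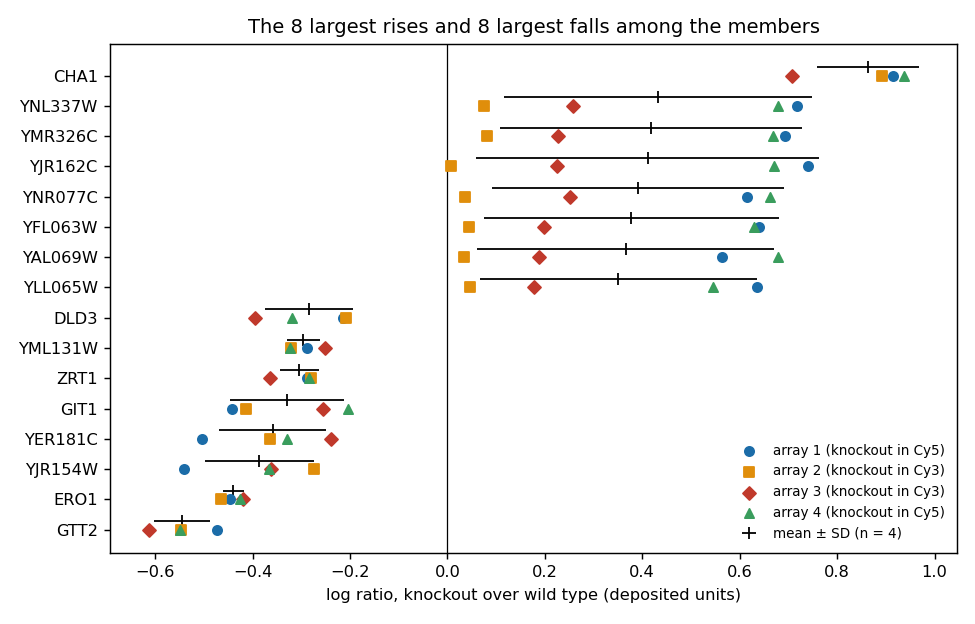
Log ratio of the 8 largest rises and 8 largest falls among the members on each of the 4 arrays (coloured marks, horizontal axis in deposited log units, knockout over wild type) with mean ± SD drawn just above. The 7 rises below CHA1 split into arrays 1 and 4 on the right and arrays 2 and 3 on the left, and in none of the 8 falls do both arrays 1 and 4 lie right of both arrays 2 and 3.

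The 8 deepest falls were taken among called members with 1 sign on all 4 arrays. Their place below 0 on each array was therefore set by that choice. GTT2, a glutathione transferase on the left arm of chromosome 12, had -0.473, -0.547, -0.613 and -0.549 on arrays 1 to 4, a mean of -0.545 ± 0.0572 (SD, n = 4) or 3.51-fold lower if base 10, with adjusted p = 1.8e-05 by limma. ERO1, the thiol oxidase that drives disulfide formation in the endoplasmic reticulum, had -0.446, -0.466, -0.420 and -0.425, a mean of -0.439 ± 0.0209 (SD, n = 4) with adjusted p = 1.8e-05 in limma. Its 4 values lay within 0.05 of each other. GIT1, a transporter of glycerophosphoinositol, had -0.442, -0.413, -0.254 and -0.205, and arrays 1 and 2 were lower than arrays 3 and 4.

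The mean of GIT1 was -0.329 ± 0.117 (SD, n = 4), with adjusted p = 0.00075 by limma. ZRT1, the high-affinity zinc transporter, had -0.288, -0.280, -0.364 and -0.284, a mean of -0.304 ± 0.0398 (SD, n = 4), with array 3 below the other arrays. DLD3, a cytosolic D-lactate dehydrogenase, had -0.213, -0.208, -0.396 and -0.320, a mean of -0.284 ± 0.0904 (SD, n = 4), with arrays 3 and 4 the lower ones. The other members of this group were YJR154W at -0.386 ± 0.112, YER181C at -0.359 ± 0.110 and YML131W at -0.296 ± 0.0339. The adjusted p of the 8 falls was at most 0.00075 in limma, and none lost its call under the 9 alternatives run for single genes.

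Further genes at the ends were picked after their values were seen. ADH6, an alcohol dehydrogenase with NADPH as cofactor, fell, with a mean of -0.272, and so did RET2, a subunit of the COPI vesicle coat, with -0.194. URA1, the dihydroorotate dehydrogenase of pyrimidine synthesis, had 0.274, 0.644, 0.228 and 0.209, a mean of 0.339 ± 0.205 (SD, n = 4) with adjusted p = 0.0048 by limma, and array 2 lay far above the others. YNL335W and YFL061W, a pair of cyanamide hydratase genes on the left arms of chromosomes 14 and 6, rose by 0.292 and 0.241. Probe sequences were not used, so shared signal within this pair cannot be told from separate rises. BDH1, a butanediol dehydrogenase, rose by 0.172, the sulfate permease gene SUL1 by 0.159 and the glycerol symporter gene STL1 by 0.140.

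The PAU genes encode seripauperins, small proteins of the cell wall mannoprotein class that yeast expresses mainly without oxygen. Of the 18 PAU rows among the members 15 rose and 0 fell, with a median of 0.174 log units, beside 22.5% called higher in all rows. PAU20 had 0.336, 0.0738, 0.0921 and 0.379 on arrays 1 to 4, a mean of 0.220 ± 0.160 (SD, n = 4) with adjusted p = 0.012 by limma. PAU12 had 0.401, 0.0964, 0.0357 and 0.347, a mean of 0.220 ± 0.181 (SD, n = 4) with adjusted p = 0.018. In both, arrays 1 and 4 stood well above arrays 2 and 3, and both lost their call without array 1.

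The family as a whole had this shape, with PAU18 as the member without it. The family's median was 0.258, 0.0610, 0.0567 and 0.316 on arrays 1 to 4. At an unadjusted p under 0.05, 17 of 18 rows were higher on arrays 1 and 4 than on arrays 2 and 3. In all rows 2.58% were. Without array 1 only 2 of the 18 were called higher, without array 4 only 5, with arrays 2 and 3 alone 0 and with arrays 1 and 4 alone 17. Of all rows, these fits called 16.6%, 17.6%, 10.9% and 14.5% higher, shares that also apply to the lists below. The 5 PAU rows away from the ends showed similar values, with a median of 0.142, 4 rises and 0 falls. PAU2 had 0.184 and PAU5 0.146, both named after their values were seen. The family's copies are close to each other in sequence, so rows may share signal.

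The COS genes encode membrane proteins that help to sort cargo into the vacuole. Of 11 COS rows, all of them members, 8 rose and 1 fell, with a median of 0.135 log units, beside 22.5% and 21.7% in all rows. The family's median was 0.175, 0.113, 0.125 and 0.142 on arrays 1 to 4. The values of the pairs lay closer together than in the PAU rows. COS5 had 0.193, 0.134, 0.160 and 0.169, a mean of 0.164 ± 0.0242 (SD, n = 4) with adjusted p = 0.001 by limma. COS3 had 0.140, 0.136, 0.200 and 0.171, a mean of 0.162 ± 0.0298 (SD, n = 4) with adjusted p = 0.0012. Array 3 was the highest in COS3 and array 1 in COS5, and 0 of the 11 rows differed between arrays 1 and 4 and arrays 2 and 3 at an unadjusted p under 0.05.

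COS10 was the member that fell, to -0.0766, and it lost its call in each of the fits without 1 array and with a dye term. COS12 did not pass, with -0.318, -0.0750, 0.183 and 0.150, where array 1 went against arrays 3 and 4. Between 7 and 8 rows of the family were called higher under every leave-one-out fit, centring, scaling, moderation and dye term run, and 3 were with arrays 2 and 3 alone. With columns turned by the dye labels 0 were. That turning sets arrays 3 and 4 against arrays 1 and 2, so rows with like values on all arrays average near 0 by arithmetic.

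The Y' elements are repeats next to the telomere that encode helicases of the YRF1 group and shorter reading frames. Of 37 rows on the list 5 rose and 6 fell, or 13.5% and 16.2%, below the 22.5% and 21.7% of all rows, with a median of -0.0074. YNL337W, described above beside rows outside this list with much the same values, and YDR543C rose most. YDR543C had 0.394, -0.0366, 0.152 and 0.528, a mean of 0.259 ± 0.251 (SD, n = 4) with adjusted p = 0.03 by limma, and array 2 lay below 0. It lost its call without array 1 and without array 4. Neither has an entry in the RefSeq table, nor do YDR544C and YNL338W, which rose by 0.0934 and 0.0789. Of the list's 5 rises only YRF1-2 has an entry, while all 6 falls have one.

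Of the 7 rows that RefSeq names YRF1, 1 rose and 0 fell. It was YRF1-2 at 0.148 ± 0.127 (SD, n = 4), with 0.113, 0.336, 0.0719 and 0.0719 on arrays 1 to 4, where array 2 was the high one, and its call was lost without array 1. The list's median was 0.0454, -0.104, -0.0692 and 0.0571 on arrays 1 to 4, so it was below 0 on arrays 2 and 3 and above 0 on arrays 1 and 4. With arrays 1 and 4 alone 8 rows rose and 1 fell, and with arrays 2 and 3 alone 2 rose and 8 fell. Of all rows, 14.5% and 10.9% were called higher in these fits. Without 1 array at a time the counts were 2 and 4, 7 and 3, 3 and 2, and 2 and 7, leaving out arrays 1 to 4 in that order. In 18 of the 37 rows arrays 1 and 4 were higher than arrays 2 and 3 at an unadjusted p under 0.05. In all rows 2.58% were.

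YLL066C had -0.543, 0.120, -2 and -0.111 and did not pass (adjusted p = 0.11 by limma). It was the 1 member with a value at the limit of 2, and it sets the lowest mean of all members, -0.634.

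**Figure D5:**
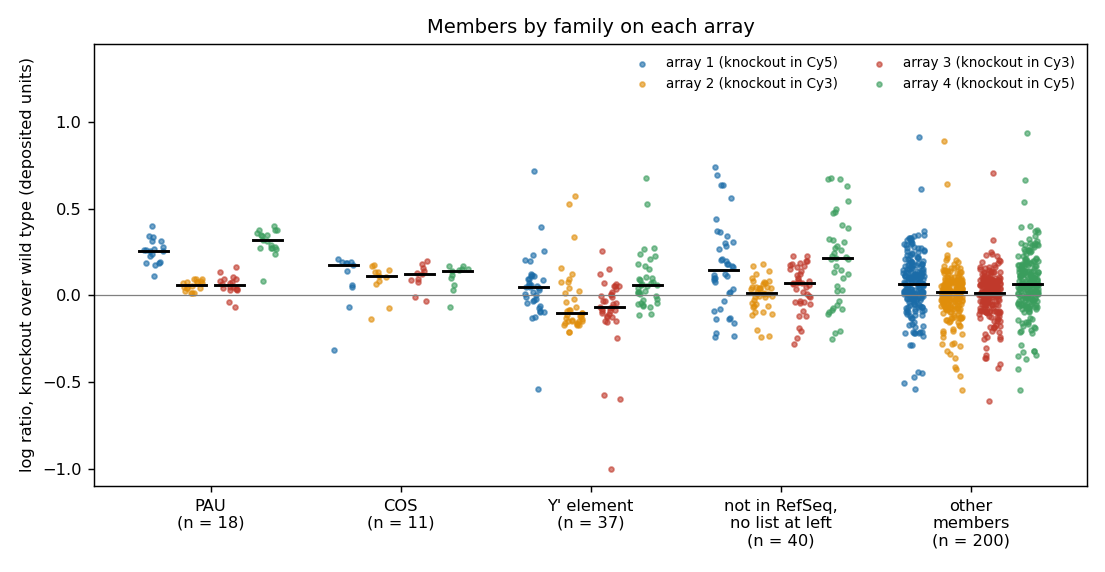
Log ratios of the members on each array (vertical, knockout over wild type in deposited log units; 1 value is drawn at the edge of -1) for the PAU, COS and Y' element lists, other members without a RefSeq gene and all remaining members, with black bars at the medians. PAU rows split by array, with medians of 0.258 and 0.316 on arrays 1 and 4 and 0.0610 and 0.0567 on arrays 2 and 3, while COS rows do not.

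The rises were not limited to these 3 families. Among the 200 members with a RefSeq gene outside the PAU, COS and Y' lists, 69 rose and 28 fell. These shares were 34.5% and 14.0%, beside 22.5% and 21.7% in all rows. The median of the 200 was 0.0489, and on arrays 1 to 4 it was 0.0657, 0.0188, 0.0154 and 0.0634. Arrays 1 and 4 were higher than arrays 2 and 3 in 34 of them and lower in 2 at an unadjusted p under 0.05. In all rows 2.58% were higher and 0.969% lower in that way. Among all 240 members outside these lists, with or without a RefSeq gene, 89 rose and 35 fell, or 37.1% and 14.6%. Of the 46 members without a RefSeq gene, 24 rose and 7 fell, with a median of 0.112. Those 46 include rows of the Y' list and 6 of the 7 outer rows that cannot be counted as separate observations.

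Flocculins are cell wall adhesins that let yeast cells clump. Of 7 rows of this list among the members 3 rose and 0 fell, beside 22.5% and 21.7% in all rows, and of 3 elsewhere 1 rose. Without array 2 the rises numbered 5, and with arrays 2 and 3 alone 1, where the median of the list was -0.0014 against 0.106 with all arrays. FLO9 had 0.319, 0.235, 0.321 and 0.372 on arrays 1 to 4, a mean of 0.312 ± 0.0569 (SD, n = 4) or 2.05-fold if base 10, with adjusted p = 0.00014 by limma, with array 2 the lowest. YAL065C, farther out on the same arm, had 0.122, 0.0483, 0.125 and 0.299, a mean of 0.149 ± 0.106 (SD, n = 4) with adjusted p = 0.016. FLO5 had 0.0072 and did not pass (adjusted p = 0.83 by limma). HPF1, a cell wall mannoprotein gene 2 rows outside the limit on its arm, rose by 0.339, a gene picked once its value was known.

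Genes for maltose and isomaltose lie in clusters at several ends and are repressed on glucose. Of 13 members 6 rose and 0 fell, beside 22.5% and 21.7% in all rows. The rises numbered 2 without array 1, 3 without array 4, 0 with arrays 2 and 3 alone and 9 with arrays 1 and 4 alone. IMA2, an isomaltase, had 0.294, 0.0763, 0.0687 and 0.395, a mean of 0.208 ± 0.162 (SD, n = 4) with adjusted p = 0.016 by limma, a call lost without array 1. IMA4 had 0.345, -0.0338, 0.0756 and 0.287, a mean of 0.169 ± 0.178 (SD, n = 4) with adjusted p = 0.047, and lost its call under 5 alternatives, centring among them. In both isomaltase genes arrays 1 and 4 were the high ones. In this way 8 of the 13 rows differed between the pairs of arrays at an unadjusted p under 0.05, beside 2.58% of all rows. Probe sequences were not used, so shared signal between rows of this list cannot be told from separate rises. SUC2, the invertase gene of the list at row 16 of its arm and thus outside the limit, fell to -0.0981.

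Of 10 hexose transporter and hexitol dehydrogenase genes among the members 3 rose and 0 fell, a share of rises near the 22.5% of all rows, with a median of 0.0651. The rises numbered 1 without array 1, 1 without array 4 and 5 without array 2, and with arrays 2 and 3 alone 0 rose and 1 fell. In 6 of these 10 genes arrays 1 and 4 were higher than arrays 2 and 3 at an unadjusted p under 0.05, beside 2.58% of all rows. SOR1, a sorbitol dehydrogenase, had 0.347, 0.162, 0.0899 and 0.302, a mean of 0.225 ± 0.120 (SD, n = 4) with adjusted p = 0.004 by limma. SOR2, also a member on this list, had a mean of 0.0540 and did not pass (adjusted p = 0.21 by limma). HXT16 had 0.273, 0.0513, 0.0670 and 0.260, a mean of 0.163 ± 0.120 (SD, n = 4) with adjusted p = 0.016, and lost its call without array 1 and without array 4. Of the 11 genes of the list outside the 10 outermost rows, 0 rose and 7 fell, with a median of -0.207. These include the main glucose transporters, but also HXT8 and HXT11 at row 11. The difference between both sets was not tested. Probe sequences were not used, so rows of this list may share signal and cannot be counted as separate observations.

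Smaller groups held both rises and falls, and with 2 to 5 members each their counts say little beside the 22.5% and 21.7% of all rows. FRE2, a ferric reductase, had a mean of 0.133 ± 0.0530 (SD, n = 4) with adjusted p = 0.0053 by limma, and ENB1, the enterobactin transporter, had -0.0824 ± 0.0280 (SD, n = 4) with adjusted p = 0.02, which makes 1 rise and 1 fall among 3 iron uptake members. ENB1 lost its call without array 3 and without array 4. Outside the 10 outermost rows 2 of 9 iron genes rose and 2 fell, and all of these but FRE1 lie within rows 11 to 18. In sulfur compound use 1 of 5 members rose and 2 fell, GTT2 and the S-adenosylmethionine permease gene SAM3, which had -0.155, -0.206, -0.208 and -0.181 and a mean of -0.187 ± 0.0252 (SD, n = 4) with adjusted p = 0.00062. The 1 rise, MMP1 at 0.0717 with adjusted p = 0.049 by limma, was lost without each array in turn and with a dye term. Outside the 10 outermost rows 1 of 3 such genes fell and 0 rose, with JLP1 and YCT1 as near as rows 11 and 13.

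ARR1, the transcription factor of arsenic resistance, had 0.167, 0.138, 0.130 and 0.167, a mean of 0.150 ± 0.0195 (SD, n = 4) with adjusted p = 0.0013 by limma, the 1 rise among 3 members, with 0 falls. The enolase-related gene ERR2 had -0.0815, -0.171, -0.190 and -0.0681, a mean of -0.128 ± 0.0619 (SD, n = 4) with adjusted p = 0.0084, the 1 fall among 3 members (2 without array 1), with 0 rises, while the enolase genes ENO1 and ENO2 away from the ends fell to -0.299 and -0.326. VTH2, a relative of the vacuolar sorting receptor, had -0.0698 ± 0.0157 (SD, n = 4) with adjusted p = 0.031, the 1 fall among 2 members. It lost its call without each array in turn and with a dye term. The receptor gene itself, PEP1, had -0.0259 and did not pass.

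FDH1, formate dehydrogenase, had 0.293, 0.0307, 0.176 and 0.326 on arrays 1 to 4, a mean of 0.206 ± 0.134 (SD, n = 4) with adjusted p = 0.0085 by limma. YPL276W, a row of the second formate dehydrogenase locus, had 0.172, 0.137, 0.152 and 0.0795, a mean of 0.135 ± 0.0399 (SD, n = 4) with adjusted p = 0.0034, so both rows of that list rose. None of the 4 biotin genes listed were members, and 1 of them rose and 1 fell.

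The silent mating-type cassette HML lies among the members on the left arm of chromosome 3. HMLALPHA1 had 0.318, 0.0805, 0.0831 and 0.302 on arrays 1 to 4, a mean of 0.196 ± 0.132 (SD, n = 4) with adjusted p = 0.0099 by limma. HMLALPHA2 had 0.198, 0.0761, 0.192 and 0.299, a mean of 0.191 ± 0.0910 (SD, n = 4) with adjusted p = 0.0036. In HMLALPHA1 arrays 1 and 4 were high and arrays 2 and 3 low, and in HMLALPHA2 array 2 was the low one.

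Rows named for the alpha genes of the mating-type locus and for the other silent cassette may share signal with these, because the cassettes carry near-identical sequence. The labels do not say which genes the strains hold at the mating-type locus. MATALPHA1 had 0.459, 0.0579, 0.0961 and 0.498 and MATALPHA2 0.216, 0.0604, 0.182 and 0.264, and HMRA2 at the other silent cassette had 0.0445, 0.116, 0.144 and 0.214. All 3 of these rows, none of them a member, rose, with means of 0.278, 0.181 and 0.130.

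The right arms of chromosomes 1 and 8 carry related blocks of genes, and both held the acid phosphatase rows left out by name. On chromosome 8 IMD2, an inosine monophosphate dehydrogenase of guanine nucleotide synthesis, had -0.216, -0.220, -0.307 and -0.343, a mean of -0.272 ± 0.0636 (SD, n = 4) with adjusted p = 0.00034 by limma. On chromosome 1 the 3 outermost rows, YAR075W, YAR074C and YAR073W, had means of -0.187, -0.203 and -0.225, and all 3 fell. YAR066W on chromosome 1 and YHR214W on chromosome 8 fell to -0.216 and -0.202, with -0.210, -0.281, -0.183 and -0.189 and -0.165, -0.291, -0.173 and -0.177 on arrays 1 to 4. These genes were chosen after their values were seen. The falls were present on all 4 arrays in each of these 6 rows. Probe sequences were not used here, and rows of related blocks may share signal. Neither the 6 rows nor the arms can therefore be counted as separate observations.

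The rows left out by name stood apart in the other direction. Of all 17 of them 3 rose and 9 fell, with a median of -0.252. These shares were 17.6% and 52.9%, beside 22.5% and 21.7% in all rows. With the 14 that lie within the 10 outermost rows put back, 120 of 320 rose and 49 fell, beside the same shares of all rows.

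Genes of the machinery that silences or caps chromosome ends were read beside the members. Of 16 silencing factors 2 rose and 3 fell, shares below the 22.5% and 21.7% of all rows, with a median of -0.0175. Without array 1, 0 rose and 2 fell, without array 3, 1 and 2, and without array 4, 3 and 2. YKU80, a subunit of the Ku complex that binds telomere ends, had -0.146, -0.185, -0.237 and -0.279, a mean of -0.212 ± 0.0579 (SD, n = 4) with adjusted p = 0.00085 by limma. SIR4, a structural protein of silent chromatin, had -0.264, -0.141, -0.195 and -0.151, a mean of -0.188 ± 0.0559 (SD, n = 4) with adjusted p = 0.0013. SIR1, which acts at the silent mating cassettes and is itself a member on the right arm of chromosome 11, had 0.254, 0.0597, 0.0720 and 0.224, a mean of 0.152 ± 0.101 (SD, n = 4) with adjusted p = 0.012, and lost its call without array 1 and with arrays 2 and 3 alone. Arrays 1 and 4 were again the high ones for SIR1 and not for YKU80 or SIR4.

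The deacetylase gene SIR2 fell, with a mean of -0.117, a call lost without array 1, array 3 or array 4, while SIR3 had -0.0058 and RAP1 -0.0279 and neither passed. SAS2 had values at the limit of 2 on arrays 1 to 3, of either sign, and none on array 4, and did not pass. Of 7 telomerase and cap genes 2 rose and 2 fell, near the shares of all rows, and 1 and 1 without array 1. RRM3, a helicase that helps forks through telomeres, had 0.281, 0.151, 0.165 and 0.0771, a mean of 0.168 ± 0.0845 (SD, n = 4) with adjusted p = 0.0051 by limma.

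CDC13, which binds the single-stranded end, had -0.0988 ± 0.0182 (SD, n = 4) with adjusted p = 0.0082 by limma, and EST2, the catalytic subunit of telomerase, had -0.0882 ± 0.0286 (SD, n = 4) with adjusted p = 0.016, a call lost without array 1. Of 8 histone deacetylase and co-repressor genes 0 rose and 3 fell, beside 22.5% and 21.7% in all rows, and 2 fell without arrays 1, 3 or 4. CYC8 had -0.309, -0.252, -0.245 and -0.243, a mean of -0.262 ± 0.0315 (SD, n = 4) with adjusted p = 0.00015 in limma, and all 4 arrays showed the fall. TUP1, its partner, had -0.154, -0.160, -0.0708 and -0.165, a mean of -0.138 ± 0.0447 (SD, n = 4) with adjusted p = 0.0036. SIN3, a scaffold of the Rpd3 deacetylase, had -0.0645 ± 0.0162 (SD, n = 4) with adjusted p = 0.042 and lost its call without each array in turn and with a dye term. RPD3 itself, the tenth row on its arm and a member, had -0.0247 and did not pass.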

How the data were processed

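Whole-culture mRNA of the knockout and the wild type was compared on 4 arrays of 2 colours. The authors deposited 1 log ratio per row and array, taken here as log10. The base, normalization and direction of these values, and the tools that made them, are stated neither in the labels nor in the file. Column medians lie near 0. Each column was turned so that LOC1 lay below 0.

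Of 6207 gene rows, 6205 with at least 3 values entered limma 3.58.1 in R 4.3.3 (lmFit and eBayes, mean against 0, 2-sided), with Benjamini-Hochberg adjusted p-values over all of them. The call needs an adjusted p under 0.05. RefSeq (assembly R64) gave names and gene order only. The members and lists were chosen with earlier results of these data known. Named genes are LOC1, the 8 largest called rises and falls with 1 sign on all arrays, up to 2 called members per list and up to 3 genes of each factor list. Other genes are said to be chosen after their values were seen. The fit was tested on simulated data. The number of arrays limits the precision. Alternatives left out arrays, changed centring, scaling, variance moderation, filter, dye term and direction, and changed the member rule. Arrays 1 and 4 alone, arrays 2 and 3 alone, and members without 2 arms were added after seeing the data.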

Additional observations from a re-analysis of the deposited data

Results flagged for a closer look

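For named genes and for the medians of lists, the 4 arrays were compared for a single array that stands away from the others, by Dixon's criterion. Chance alone sets apart about 5% of such groups, and 5 of 48 were set apart here. The value of ZRT1 on array 3 was -0.364, below the other arrays. CDC13 on array 3 was -0.126 and also the lowest. CYC8 on array 1 was -0.309, the lowest of its 4 values, and TUP1 on array 3 was -0.0708, the highest. The median of the 3 arsenic resistance members was 0.110 on array 1, above the other arrays. The cause was not tested for any of them.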

How the results depend on the processing

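The count of members higher was 117 and that of members lower 42. Leaving out 1 array at a time gave 57 to 129 higher, 29 to 37 lower and a median of 0.0389 to 0.0654. The lowest counts higher were 57 without array 1 and 66 without array 4. Columns turned by the dye labels gave 0 higher and 0 lower in limma (1 and 1 at an unadjusted p under 0.05) and a median of -0.0074, against 0.0563. Since this turning sets arrays 3 and 4 against arrays 1 and 2, rows alike on all arrays cancel, and the low counts do not measure robustness. Arrays 1 and 2 alone gave 28 higher and 21 lower, arrays 1 and 4 alone 26 lower, and arrays 2 and 3 alone 24 higher. The 5 outermost rows gave 67 higher and 20 lower of 155, and the 20 outermost gave 199 and 99 of 623, where the number of rows sets the counts. For the other changes the cause was not tested. Centring, scaling, moderation, the filter on missing values, the dye term and the other changes to the member rule kept both counts within 1.5 times. Of 423 values of 47 named genes under 9 alternatives, 382 kept their side of the threshold, 41 no longer passed and 0 reversed. In all, 30 genes kept their side under each of these, and 17 did not. No paired analysis was possible because each array already holds 1 knockout and 1 wild-type culture, and its log ratio is the pair. The direction, the log base and the dye orientation limit what these counts show, and spot signals over background were not used here.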
